A study of Mus musculus with 4 samples.

Results

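Regions of the mouse genome were described that held a peak of methylated DNA in sperm of both T2D (type 2 diabetes model) and control founder males, but with a large difference in the number of sequenced tags. Peaks of the T2D and control sperm lists were paired where each overlapped exactly 1 peak of the other list by at least 1 bp on an autosome, and 113033 such pairs held 60 or more tags in sum. Tags were scaled to the sum of all tags in each list, and a pair was kept where the T2D/control ratio was 2 or more or 0.5 or less. This left 3502 regions of the 113033 pairs, among 690963 peaks in the 4 lists of the study. In 1831 regions the ratio was 2 or more, which is 1.62% of all pairs, and these are called T2D-high. In 1671 regions it was 0.5 or less, which is 1.48% of all pairs, and these are called T2D-low. The sperm tag values chose these regions, so they are given as a description and with no test.

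All mice were ICR, an outbred strain. T2D founders were males fed a diet rich in fat (33% of its energy), given a low dose of streptozotocin (STZ, a toxin of insulin-producing beta cells) at 12 weeks of age, and accepted when fasting glucose was 7 to 11 mM in the 4 weeks after it. Control founders were males on a control diet, and the labels name no injection for them. Sperm of T2D and of control founders was taken from the caudal epididymis of 6 males per group at 16 weeks of age, with a lysis step for somatic cells. Islets came from offspring of T2D fathers and of control fathers, 6 per group at 3 weeks of age, born to dams on standard diet. The labels do not state the sex of the offspring. Diet and STZ were given together, so their effects cannot be told apart. Whether and how the 6 animals of a group were combined is not stated, and each group had 1 library, so there are no replicates and no difference between libraries could be tested.

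Methylated DNA immunoprecipitation with sequencing (MeDIP-seq) pulls down sheared DNA with an antibody against 5-methylcytosine. Its signal follows the number of methylated CpG sites on a fragment, so a peak is a stretch where methylated CpGs are dense and a tag count is not a methylation percentage. Sperm DNA is methylated over most of the genome, with CpG islands at many promoters left free, and most of this pattern is erased and rebuilt after fertilisation. Imprinted regions and some repeats are known to keep part of it.

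The T2D sperm list held 178584 peaks with 11045303 tags in sum, and the control sperm list 177342 peaks with 11065974 tags. Per the file headers, the T2D sperm library had 31833988 unique tags and the control sperm library 31053754. No input library was used in calling the sperm peaks, so a higher tag count from denser methylation, from methylation in more cells and from more copies of the DNA cannot be told apart. Positions are those of build mm9, which the submitters name. A genome or gene annotation of that build was not used here, so no genes or sequences are given and the tissue labels were not checked at marker genes.

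The tag difference in most of these regions was close to the limit that chose them. T2D-high regions had a median of 83 tags in T2D sperm and 36 tags in control sperm, and a median ratio of 2.22 (95% interval of the median 2.204 to 2.24, n = 1831). T2D-low regions had a median of 38 tags in T2D sperm and 88 tags in control sperm, and a median ratio of 0.449 (0.444 to 0.452, n = 1671). Only 113 T2D-high regions reached a ratio of 3 and 10 a ratio of 4, while 123 T2D-low regions were at 0.333 or less and 12 at 0.25 or less. The weaker peak of the pair held fewer than 50 tags in 1401 T2D-high regions (76.5%) and in 1187 T2D-low regions (71.0%), against 46.0% of all pairs. All intervals here are at 95%. Those of single tag ratios cover counting error only. Those of medians and shares cover only the scatter among regions, as if regions were independent. PCR copies and neighbouring regions are not independent, and no interval covers differences between libraries.

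Which direction held more regions depended on the scaling and on the limit. Scaled to the unique tags of each library, there were 1490 T2D-high and 1994 T2D-low regions. With tags scaled to the sum of each list, a pair with exactly 2 T2D tags per control tag had a ratio of 2.00374, and 167 such pairs were inside the limit. Pairs with exactly 1 T2D tag per 2 control tags had a ratio of 0.500936, and 115 such pairs were outside. The 3 pairs with most tags just inside the upper limit had 184, 162 and 150 tags in T2D sperm and 92, 81 and 75 tags in control sperm. Just outside it, 3 pairs had 199, 183 and 173 tags in T2D sperm and 100, 92 and 87 tags in control sperm. At the lower limit, 122, 95 and 94 tags in T2D sperm stood against 245, 191 and 189 tags in control sperm just inside, and 110, 98 and 98 tags against 220, 196 and 196 tags just outside.

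**Figure D1:**
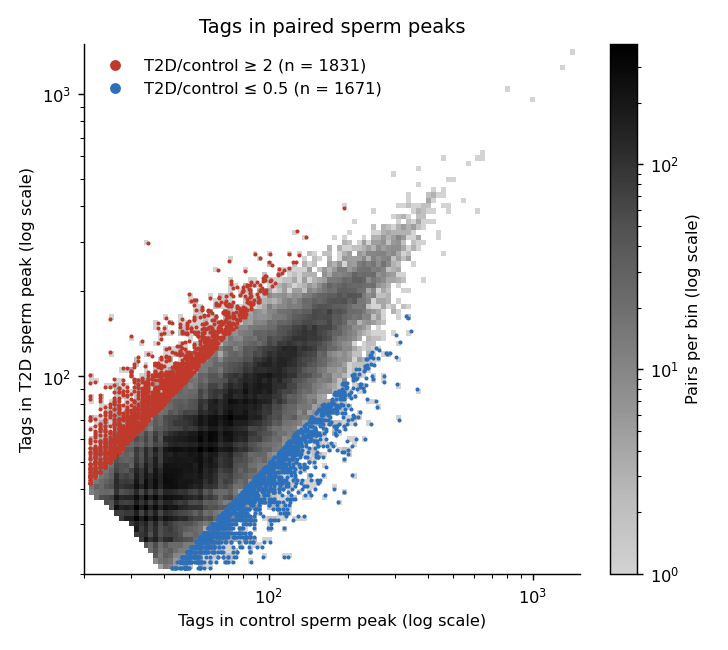
Tags in the T2D sperm peak (y axis, log scale) against tags in the control sperm peak (x axis, log scale) for pairs of peaks. Grey bins count all 113033 pairs, red points are the 1831 T2D-high regions and blue points the 1671 T2D-low regions, and both groups lie along the edge of the grey cloud, with a few regions far from it.

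T2D-high regions were wide peaks in T2D sperm and narrow peaks in control sperm. Their median width was 1689 bp in T2D sperm and 798 bp in control sperm, where the medians over all pairs were 1077 bp and 1079 bp. The T2D peak was the wider one in 1781 of 1831 regions, and its width was 2 or more times that of the control peak in 935, or 51.1%, against 2.35% of all pairs. The median width ratio was 2.03 (1.98 to 2.06). Tags per bp of peak width, the density of tags, differed far less, with a median ratio of 1.14 (1.12 to 1.17), and it was above 1 in 1193 regions, or 65.2%, against 51.5% of all pairs. Only 92 T2D-high regions (5.02%) had a density ratio of 2 or more, against 0.839% of all pairs.

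T2D-low regions had the mirror image of this shape. Their median width was 810 bp in T2D sperm and 1701 bp in control sperm. The T2D peak was the narrower one in 1643 of 1671 regions, and its width was at or below 0.5 of the control peak's in 919, or 55.0%, against 2.44% of all pairs. The median width ratio was 0.475 (0.464 to 0.486) and the median density ratio 0.912 (0.889 to 0.928). Density was lower in T2D sperm in 1018 regions, or 60.9%, against 48.5% of all pairs, and 75 (4.49%) had a density ratio of 0.5 or less, against 0.757% of all pairs. The number of tags and the width of a peak are linked by peak calling, so the width values are not independent of the choice of regions.

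Chosen by density in place of tags, the regions were mostly different ones. A density ratio of 2 or more was found at 948 pairs, of which 92 were T2D-high, which is 5.02% of the T2D-high regions and 9.71% of the 948. A density ratio of 0.5 or less was found at 856 pairs, and the 75 of them that were T2D-low are 4.49% of the T2D-low regions and 8.76% of the 856. In these density lists the width ratio pointed the other way, with medians of 0.607 and 1.66.

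**Figure D2:**
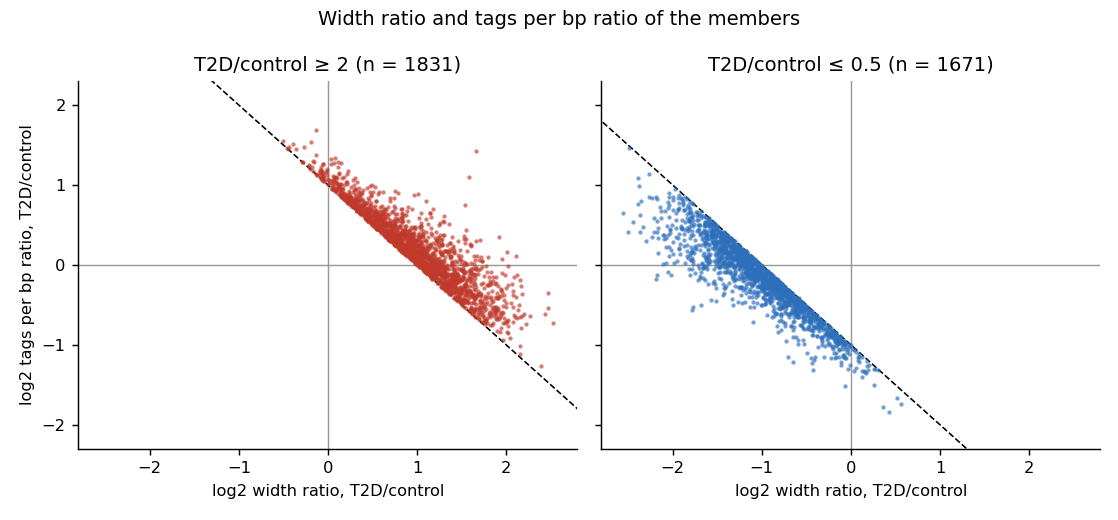
log2 ratio (T2D/control) of tags per bp on the y axis against log2 ratio of peak width on the x axis, with T2D-high regions on the left and T2D-low regions on the right, 1 point per region. The dashed line is a tag ratio of 2 (left) or 0.5 (right). Most points lie to the right of 0 on the left and to the left of 0 on the right, near a log2 density ratio of 0.

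The wider peak usually ran well past the narrower one, more often on 1 side than on both. In 1194 T2D-high regions (65.2%, 95% Wilson interval 63.0% to 67.4%) the control peak lay wholly inside the T2D peak, and in 1135 T2D-low regions (67.9%, 65.6% to 70.1%) the T2D peak lay wholly inside the control peak. Over all pairs, the same arrangements were found in 24.4% and 25.6%. The wider peak extended by at least 300 bp on 1 side and by less than 100 bp on the other in 962 T2D-high regions (52.5%) and in 880 T2D-low regions (52.7%), against 26.8% of all pairs. It extended by at least 300 bp on both sides in 214 T2D-high (11.7%) and 218 T2D-low regions (13.0%), against 1.56% of all pairs. On neither side did it extend that far in 17.1% of T2D-high and 14.5% of T2D-low regions, against 66.2% of all pairs. Where it extended by at least 300 bp, the 1-sided form was found in 962 of 1517 T2D-high and 880 of 1428 T2D-low regions. Over all pairs it was 30323 of 38251, a larger share, so 1-sidedness is not particular to these regions. On the longer side the extension had a median of 786 bp in T2D-high and 837 bp in T2D-low regions, against 206 bp over all pairs. The summits of the paired peaks were close in most regions, with a median gap of 35 bp in T2D-high and 38 bp in T2D-low regions, against 28 bp over all pairs. In some they were far apart, and the 95th percentile of the gap was 1055.5 bp and 1059 bp, against 465 bp over all pairs.

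Divided by the added width, the excess of tags in the wider peak came to about the density of a peak. In the 1553 T2D-high regions where the T2D peak was at least 300 bp wider, it held a median of 55.3 more tags per kb of added width. The corresponding value was 55.4 more tags per kb for the control peak in 1461 T2D-low regions, and 32.7 over all pairs with such a difference. Unique tags averaged 12.0 per kb of genome in the T2D and 11.7 per kb in the control sperm library. Since these regions were chosen for their excess of tags, their values per kb of added width were bound to be high. Tags were counted over whole peaks, so the part of the excess that lay in the added bases is not known. The authors' fold enrichment, which is read here within its own list, had a median of 6.58 at the wide T2D peaks of T2D-high regions, below the 7.07 of all paired T2D peaks and the 6.75 of the whole T2D list. Their narrow control peaks had 6.22, where all paired control peaks had 7.22 and the whole control list 6.77. In T2D-low regions the narrow T2D peaks had a median of 6.13 in the T2D list and the wide control peaks 6.67 in the control list, both also below the paired peaks of their list.

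Of the 6 T2D-high regions with the largest ratios, the first stood apart. On chromosome 7 a T2D peak from 38972426 to 38975135 (2710 bp) held 297 tags, and a control peak from 38974153 to 38975006 (854 bp) held 35 tags. The T2D peak reached 1727 bp further on 1 side, and both its width and its density were higher, for a tag ratio of 8.50 (exact binomial interval 5.98 to 12.4), a width ratio of 3.17 and a density ratio of 2.68. The pairs around it within 100 kb that were neither T2D-high nor T2D-low had a median ratio of 0.930, so its neighbours did not share the excess. The second, on chromosome 19, had 160 tags from 50746827 to 50749171 in T2D sperm and 25 tags from 50747542 to 50748322 in control sperm, a ratio of 6.41 (4.19 to 10.2). The other 4, on chromosomes 13, 1, 10 and 5, had 95 to 139 tags in T2D sperm and 21 to 30 tags in control sperm, with ratios of 4.53 to 4.89 and density ratios of 1.08 to 1.68.

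Among T2D-low regions the 6 smallest ratios lay close together. On chromosome 19 a T2D peak from 45941451 to 45942056 (606 bp) held 23 tags and a control peak from 45939628 to 45942377 (2750 bp) held 118 tags, a ratio of 0.195 (0.119 to 0.307) with a density ratio of 0.886. On chromosome 2 a T2D peak from 3486075 to 3486890 (816 bp) held 36 tags and a control peak from 3484324 to 3487127 (2804 bp) held 183 tags, a ratio of 0.197 (0.134 to 0.283) with a density ratio of 0.677. The other 4, on chromosomes 2, 19, 12 and 4, had 23 to 70 tags in T2D sperm and 114 to 310 tags in control sperm, with ratios of 0.202 to 0.226. In all 6 the T2D peak was short, at 501 to 971 bp, and the control peak was long, at 2263 to 3578 bp.

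**Figure D3:**
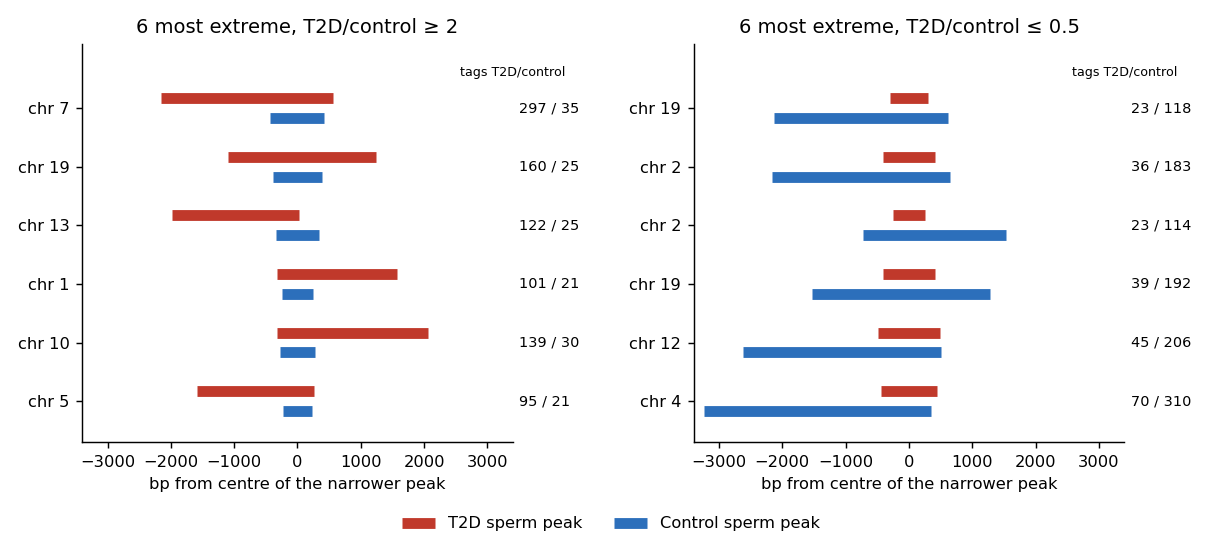
Extent of the T2D sperm peak (red, upper bar) and the control sperm peak (blue, lower bar) in the 6 regions with the largest T2D/control ratio (left) and the 6 with the smallest (right), in bp from the centre of the narrower peak, with the tags of both at the right of each panel. The wider bar runs past the narrower one mainly on 1 side in most regions, as at chromosome 7 with 297 and 35 tags.

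Regions with many tags were also among them. The T2D-high region with the most tags, on chromosome 7, had 395 tags from 137200995 to 137204640 in T2D sperm and 193 tags from 137203146 to 137204603 in control sperm. Its ratio was 2.05 (1.72 to 2.45), while its density was lower in T2D sperm, with a ratio of 0.820. The next 5 had 255 to 328 tags in T2D sperm and 119 to 138 tags in control sperm. A T2D-low region on chromosome 7 had 164 tags from 89919522 to 89921618 in T2D sperm and 332 tags from 89919496 to 89922073 in control sperm, a ratio of 0.495 (0.408 to 0.598) with a density ratio of 0.608. In islets it had 606 tags in T2D and 408 in control, the opposite direction, with a ratio of 1.49 (1.31 to 1.69). On chromosome 15, a T2D-low region had 90 tags from 25739850 to 25740565 in T2D sperm and 365 tags from 25739743 to 25742956 in control sperm, a ratio of 0.247 (0.194 to 0.312) with a density ratio of 1.11. In islets this region had no peak in the T2D list and 2 peaks with 155 tags in the control list.

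A small share of the regions had paired peaks of similar width, and there the difference was one of density. Widths were within 1.25-fold in 185 T2D-high regions (10.1%) and 146 T2D-low regions (8.74%), against 59.9% of all pairs. Their median density ratios were 1.94 (1.89 to 2.01) and 0.513 (0.4996 to 0.523). This subset and its examples were chosen after the values were seen. On chromosome 13 peaks from 112739532 to 112740205 in T2D sperm and from 112739485 to 112740223 in control sperm held 73 and 25 tags, a ratio of 2.93 (1.84 to 4.81), and in islets the T2D list had 73 and the control list 32 tags there. On chromosome 2 peaks from 177292868 to 177294687 in T2D sperm and from 177292856 to 177294420 in control sperm held 211 and 83 tags, and the islet lists held 311 tags in T2D and 156 in control. On chromosome 5 the sperm difference was the other way, with 27 tags from 51494328 to 51494865 in T2D sperm and 74 tags from 51494195 to 51494857 in control sperm, while islets had 49 tags in T2D and 20 in control. Over the whole subset with a peak in both islet lists, the islet ratio was above 1 in 45 of 101 T2D-high regions and below 1 in 47 of 100 T2D-low regions, so the examples with the direction of sperm are not typical of it.

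Both kinds of region were spread over all 19 autosomes. T2D-high regions made up from 1.38% of the pairs on chromosome 16 to 1.95% on chromosome 13, and T2D-low regions from 1.15% on chromosome 8 to 1.89% on chromosome 17. Along the chromosomes, in 10 equal parts of the length from coordinate 1 to the last peak, their shares ran from 1.38% to 1.84% and from 1.31% to 1.65%. Sperm peaks around them were about as dense as around other pairs, with the middle 50% at 80.5 to 113.5 peaks per Mb in T2D-high and 82.5 to 113.0 in T2D-low regions, against 78.5 to 112.5 over all pairs. Of 638 steps between successive regions less than 100 kb apart, 352 (55.2%) joined 2 of the same direction, against 52.3% of all 3483 steps. The pairs within 100 kb that were themselves in neither list had a median ratio above 1 around 57.1% of T2D-high regions and around 51.4% of T2D-low regions, against 53.8% around all pairs.

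The islet libraries are separate from the sperm libraries and were not used to choose the regions, and the labels tie no offspring to a given father. A peak in both islet lists, anywhere in the stretch covered by either sperm peak, was found at 835 T2D-high regions (45.6%, 43.3% to 47.9%) and at 908 T2D-low regions (54.3%, 51.9% to 56.7%), against 55.3% of all pairs. The T2D-high share lay below that of all pairs by more than its counting interval, and the interval of the T2D-low share included that of all pairs. Regions are not replicates, and this difference could not be tested over libraries. At the bases shared by both sperm peaks, the shares were 40.4% in T2D-high regions, 48.3% in T2D-low regions and 54.7% of all pairs. Islet peaks in the T2D list alone were found at 279 T2D-high (15.2%) and 211 T2D-low regions (12.6%), against 12% of all pairs, and in the control list alone at 272 (14.9%) and 249 (14.9%), against 12.1%.

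The islet shares also moved with the number of sperm tags. Of regions with 60 to 79 summed sperm tags, islet peaks in both lists were found at 31.6% of T2D-high regions (25.9% to 37.9%) and 47.8% of T2D-low regions (40.2% to 55.5%), against 33.6% of all pairs. With 100 to 149 tags these shares were 45.2%, 52.1% and 58.0%, and with 200 to 299 tags 55.5%, 64.3% and 71.3%. T2D-high regions were below T2D-low regions in each of the 6 classes of tag number, with intervals that overlapped in 5 of them. From 100 tags upwards both were below all pairs.

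The islet ratio had no common direction with the sperm ratio. At the 835 T2D-high regions with both islet peaks the median islet tag ratio, T2D/control, was 1.00 (0.952 to 1.03), and it was above 1 in 419 (50.2%, 46.8% to 53.6%), against 51.8% of all pairs with both islet peaks. At the 908 T2D-low regions the median was 0.992 (0.964 to 1.02), and the ratio was below 1 in 455 (50.1%, 46.9% to 53.4%), against 48.2% of all such pairs. Over all 62523 pairs with both islet peaks the median was 1.00. Regions with equal islet tags in both lists have a ratio of 1.00237 after scaling, so the shares above count them as above 1. By islet tags per bp, 46.1% of T2D-high regions were above 1, against 45.8% of all such pairs, and 54.4% of T2D-low regions were below 1, against 54.2%, so both kinds moved with the background. The intervals leave room for a difference of a few percentage points either way. Large islet ratios had a higher share than among all pairs in both kinds of region and in both directions. A ratio of 2 or more was found at 40 T2D-high (4.79%, 3.54% to 6.46%) and 45 T2D-low regions (4.96%, 3.72% to 6.57%), against 2.1% of all such pairs, and a ratio of 0.5 or less at 25 (2.99%, 2.04% to 4.38%) and 28 (3.08%, 2.14% to 4.42%), against 1.5%. More than 1 islet peak in either list lay in 8.26% of the T2D-high and 6.50% of the T2D-low regions, against 1.64% of all such pairs, and the part of this in the large ratios was not tested.

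Across regions the correlation of the log2 ratios in sperm and islets was near 0. Pearson's r was 0.030 and Spearman's rho 0.016 over the 835 T2D-high regions, 0.014 and 0.011 over the 908 T2D-low regions, and -0.002 and -0.00024 over all 62523 pairs, where all regions share the same 4 libraries. The log2 width ratios of sperm and islets had r of 0.012, -0.034 and -0.005 in the same order.

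**Figure D4:**
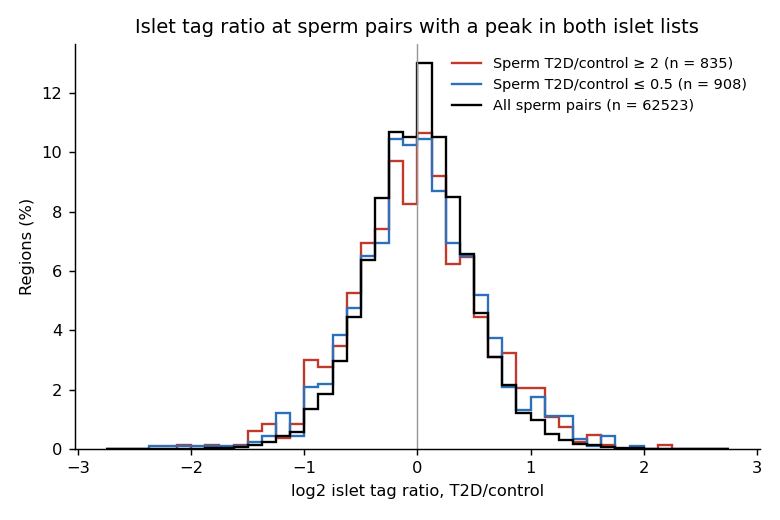
Percent of regions (y axis) by log2 ratio of islet tags, T2D/control (x axis, bins of 0.125), at the 835 T2D-high regions (red), the 908 T2D-low regions (blue) and all 62523 pairs (black) with a peak in both islet lists. All 3 outlines centre on 0, and the red and blue ones have slightly heavier tails on both sides.

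A few regions had large differences of 1 direction in both tissues. The 6 T2D-high regions with the largest islet ratios, among those with 60 or more islet tags, had islet ratios of 2.85 to 4.51. The first, on chromosome 10, had 70 tags from 85270460 to 85272112 in T2D sperm and 26 tags from 85271426 to 85272116 in control sperm, and 99 tags in T2D and 22 tags in control islets, an islet ratio of 4.51 (2.82 to 7.52). The 6 T2D-low regions with the smallest islet ratios had values of 0.2005 to 0.322. On chromosome 11, the first of them had 43 tags from 96696324 to 96697406 in T2D sperm and 123 tags from 96696420 to 96698075 in control sperm, and 29 tags in T2D and 145 tags in control islets, an islet ratio of 0.2005 (0.130 to 0.300). The second, on chromosome 17, had 43 tags from 5774165 to 5775041 in T2D sperm and 116 tags from 5771998 to 5775045 in control sperm, with 33 tags in T2D and 154 tags in control islets. Islet ratios of this size, at least 2 or at most 0.5, had the direction of sperm in 40 T2D-high and 28 T2D-low regions, and the opposite direction in 25 and 45.

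One stretch held more tags in the T2D library in both tissues. The largest number of T2D-high regions within 1 Mb was 9, on chromosome 17 between 30588628 and 31054305, a length of 465678 bp that held no T2D-low region. From one end to the other these 9 had 145, 182, 233, 141, 150, 153, 141, 107 and 88 tags in T2D sperm and 47, 84, 112, 49, 60, 56, 39, 29 and 44 tags in control sperm. Every T2D value was at least 2.00 times its control value after scaling, with a highest ratio of 3.70 (2.43 to 5.78). The stretch was found by these 9 regions, so the 25 other pairs in it are given apart. Of these, 24 had a ratio above 1, with a range of 0.983 to 1.93 and a median of 1.34, against 1.00 over all pairs of the genome. Among these 25, density was higher in T2D sperm at 23, with a median density ratio of 1.29, and the T2D peak was wider at 14, with a median width ratio of 1.03.

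Where both islet lists had a peak, islets of the offspring had the same direction over this stretch. All 21 pairs with a peak in both islet lists had an islet ratio above 1, with a range of 1.18 to 2.41 and a median of 1.77, and this held for 5 of 5 T2D-high regions and for 16 of 16 other pairs (median 1.72). At those 5 the islet lists held 124, 149, 83, 66 and 69 tags in T2D and 66, 62, 53, 38 and 37 tags in control, and T2D was the higher in each. The T2D-high regions from 30787892 and from 30851682 had an islet peak in the control list alone, with 48 and 29 tags, where sperm had more tags in T2D. The lowest count of any islet peak was 18, and a peak missing from the T2D list is not a measured absence. Those from 30781057 and from 30965218 had no islet peak in either list. In the 500 kb before the stretch the median sperm ratio was 1.05 over 41 pairs and the median islet ratio 1.00 over 23 pairs. In the 500 kb after it they were 0.978 over 32 pairs and 1.07 over 13 pairs. In the plot of ratios along the stretch, the points scatter around 0 on both sides of it.

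Fixed windows of 500 kb placed this stretch against the genome. These windows were chosen after the stretch was seen. The T2D-high regions that located the stretch raise its sperm value, so sums were also made without any T2D-high or T2D-low region. Over the sperm pairs left, 33 in this window, chromosome 17 from 30500001 to 31000000 had a ratio of 1.32, the highest of 3151 windows with at least 15 pairs, where the next was 1.27. The place of the window was still found from its neighbouring T2D-high regions, so this rank is a description. With them included, the ratio was 1.46, and the central 95% of 3184 windows ran from 0.885 to 1.14. Islet tags were not used to find the stretch. Summed over the 19 pairs left with a peak in both islet lists, they gave a ratio of 1.57, the highest of 2073 windows with at least 15 such pairs, where the next was 1.396.

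When the tags of all peaks were summed, with or without a partner in the other list, the ranks were lower. On this sum the chromosome 17 window had a ratio of 1.31 in sperm, rank 49 of 3184, and 1.497 in islets, rank 12. Such sums move with how many peaks were called in each list. Over the stretch itself the sperm lists held 48 peaks with 6276 tags in T2D and 47 peaks with 4817 tags in control, a ratio of 1.31 (1.26 to 1.36), and the islet lists 46 peaks with 5607 tags in T2D and 50 peaks with 3802 tags in control, a ratio of 1.48 (1.42 to 1.54). In the 500 kb before it, the sperm lists held 4627 tags in T2D and 4160 in control, a ratio of 1.11 (1.07 to 1.16), so the summed sperm tags were also higher in T2D on that side, by less. The islet sum there went the other way, with 49 peaks and 2476 tags in T2D and 63 peaks and 3589 tags in control, a ratio of 0.692.

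**Figure D5:**
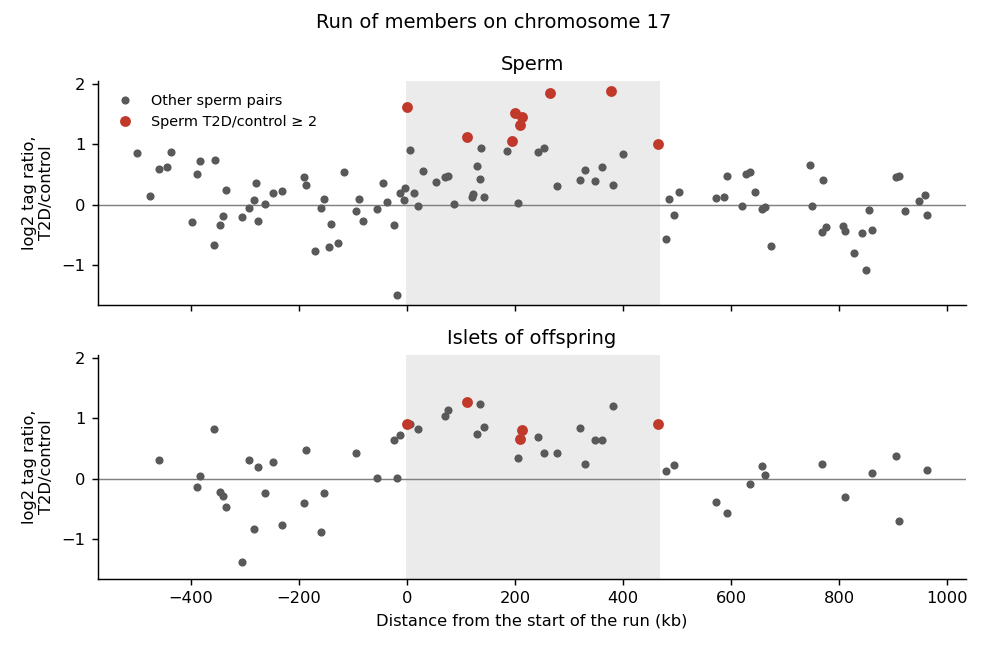
log2 tag ratio, T2D/control (y axis), of each sperm pair along chromosome 17 by distance in kb from the start of the stretch (x axis), in sperm (upper panel) and in offspring islets where both islet lists have a peak (lower panel). Red points are the 9 T2D-high regions and grey points other pairs. Inside the shaded 465678 bp nearly all sperm points and all 21 islet points lie above 0, and outside it they scatter around 0.

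Over the 1 Mb from the middle of its first T2D-high region, the chromosome 17 stretch and the bases after it had 1 T2D-low region. The 58 other pairs there had a median sperm ratio of 1.12. The densest stretch of T2D-low regions was described over the same span. On chromosome 9, 8 T2D-low regions and 1 T2D-high region lay between 46238938 and 47141982. The 1 Mb counted from the middle of the first of them runs past that end. It held 93 pairs, and the 84 other pairs had a median ratio of 1.03. The 8 regions had 26 to 77 tags in T2D sperm and 58 to 158 tags in control sperm. Both islet lists had a peak at 3 of them, with ratios of 0.583, 0.891 and 1.12. Others of the 8 had an islet peak in the T2D list alone, with 28, 19, 29 and 29 tags, where the lowest count of any islet peak was 18. A peak missing from the control list is not a measured absence, so no direction is read from these. The T2D-low region from 46870936 had no islet peak in either list. The most regions of either kind within 1 Mb was 12, on chromosome 5 between 112707174 and 113672866, where 5 were T2D-high and 7 were T2D-low. The 78 other pairs in the 1 Mb from the middle of the first of these 12 had a median ratio of 1.03. With all pairs kept, 2154 windows of 500 kb were compared in both tissues, and 1 was at 0.8 or less in both. It was chromosome 11 from 96500001 to 97000000, with ratios of 0.799 in sperm and 0.794 in islets. Its 36 pairs held 4 T2D-low regions, with the chromosome 11 region named above among them, and 0 T2D-high regions. These 4 were chosen for a low sperm ratio and lower the sperm value, which lay just inside the limit. The region named above was also picked for its islet ratio. No sum without them is given here, so this window is a description only.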

How the data were processed

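One MeDIP-seq peak list per library was used, for sperm and offspring islets of the T2D and control groups. The submitters' processing notes name CASAVA 1.4 and build mm9. Per the file headers, sperm peaks were called by MACS without a control library, on 49 bp tags, at a p-value limit of 1.00e-05, a band width of 200 bp and at most 2 tags kept per position. The islet caller and the islet library totals were not given in the sources used here. The deposited tag counts are whole numbers per peak and not scaled. Peak widths in bp, the score (-log10 of the p-value times 10, with 50 as its lowest value in every list) and the fold enrichment are the authors' values, per the file headers.

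Pairs, ratios and positions were computed here with python 3.11.15, numpy 2.4.6, pandas 2.3.3 and scipy 1.17.1, and the overlap step was checked against bedtools 2.31.1 and tested on simulated data. T2D sperm tags were multiplied by 1.00187 and T2D islet tags by 1.00237, so that the summed tags of paired lists were equal. Islet tags were summed over all islet peaks overlapping the stretch covered by either sperm peak. Ratios carry Clopper-Pearson intervals given the summed tags, shares Wilson intervals and medians binomial intervals on order statistics. With 1 library per group no test was made.

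Regions named are, in each direction, the 6 with the most extreme ratio, the 6 with the most tags, the 3 just inside and outside each limit, the 6 with the most extreme islet ratio of the same direction and the 3 of the opposite direction (60 or more islet tags), and the densest run within 1 Mb. The T2D-low and mixed runs, the similar-width regions and the 500 kb windows were added after the values were seen. The regions and lists were chosen with earlier results of these data known. Alternatives tried were other scalings, tag minimums, overlaps, score limits, tags per bp, added sex chromosomes, summed split peaks and other islet measures.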

Additional observations from a re-analysis of the deposited data

Results flagged for a closer look

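At 6 regions the islet ratio lay far on the opposite side from the sperm ratio. They are the 3 farthest in each direction, and the difference between tissues was not tested. Among T2D-high regions, chromosome 7 from 117305140 to 117306183 had 53 tags in T2D and 26 in control sperm, but 24 tags in T2D and 103 in control islets, an islet ratio of 0.234 (0.143 to 0.367). Chromosome 17 from 22669274 to 22669936 had 62 tags in T2D and 31 in control sperm, but 22 in T2D and 80 in control islets, a ratio of 0.276. Chromosome 12 from 34066532 to 34068536 had 119 in T2D and 58 in control sperm, but 29 in T2D and 87 in control islets, a ratio of 0.334. Among T2D-low regions, chromosome 10 from 55439977 to 55440810 had 44 tags in T2D and 91 in control sperm, but 97 in T2D and 25 in control islets, an islet ratio of 3.89 (2.48 to 6.30). Chromosome 15 from 85427281 to 85428459 had 34 in T2D and 70 in control sperm, but 70 in T2D and 21 in control islets, a ratio of 3.34. Chromosome 3 from 146893892 to 146894840 had 43 in T2D and 99 in control sperm, but 58 in T2D and 18 in control islets, a ratio of 3.23. Positions here are those of the T2D sperm peak.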

How the results depend on the processing

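No paired analysis was possible because each group has 1 library and the labels carry no replicate numbers. Of the values recomputed under other settings, 70 stayed within the interval of the main value, or for counts of regions within 1.5 times. Another 34 moved by more and 4 turned round. Turning round was counted only where the main interval lay wholly on 1 side of 1 or 50%. Islet medians and shares that crossed 1 or 50% are therefore not among the 4. The 70 include all values from a setting with a tag minimum below 60, which could not change them. Each sperm peak held at least 21 tags, and the lowest summed tags were 63 in T2D-high and 64 in T2D-low regions. That setting was bound to return the same regions, so its values say nothing on stability. T2D-high values come first in each pair of numbers below. The counts of 1831 and 1671 became 859 and 734 with a reciprocal overlap of 50%, 221 and 228 with a score of 100 or more in both lists, 948 and 856 by tags per bp, 185 and 146 with widths within 1.25-fold, and 1207 and 1199 with 100 or more summed tags. Scaling to unique tags, where pairs at exactly 2 to 1 fall outside and those at 1 to 2 inside, turned the split to 1490 and 1994, so which direction holds more regions depends on the scaling. The median width ratios of 2.03 and 0.475 became 2.10 and 0.494 with unique tags, 2.22 and 0.449 with 100 tags, 1.55 and 0.634 with reciprocal overlap, 2.26 and 0.440 with the score limit, 1.11 and 0.896 with similar widths, and turned to 0.607 and 1.66 by tags per bp. The median density ratios of 1.14 and 0.912 became 1.10 and 0.881 with unique tags, 1.06 and 0.949 with 100 tags, 1.43 and 0.703 with reciprocal overlap, 2.17 and 0.461 by tags per bp, 1.94 and 0.513 with similar widths, and turned to 0.975 and 1.01 with the score limit. The choice of the pairs by overlap, width or density sets these values by its construction. In islets, the median ratios were 0.931 and 1.02 and the T2D-high share above 1 was 44.6% with similar widths, the last setting added after the values were seen. By islet tags per bp, 46.1% of T2D-high regions were above 1, against 45.8% of all pairs, and 54.4% of T2D-low regions were below 1, against 54.2% of all pairs, so neither share stands out. All other settings kept both islet medians between 0.969 and 1.00. At 2 T2D tags per control tag, the interval of the ratio was 1.55 to 2.60 at 276 summed tags and 1.28 to 3.19 at 93 summed tags. T2D-high regions had a median of 119 summed tags and a 95th percentile of 251, so the first interval is narrower than is typical of them. The minimum of 60 tags allows intervals wider than both.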
